A study of Homo sapiens with 14 samples.

Results

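The 9 genes described here prepare and start DNA replication at origins. They were CDC6, CDT1, GMNN, ORC1 and ORC6, which act in origin licensing or its control, CDC45, GINS1 and GINS2, which complete the replicative helicase, and DTL, which directs the destruction of the licensing factor CDT1. They were chosen by name from their known roles, with earlier results of these data already known, and all 9 were found among the 12425 genes of the table. RNA polymerase II (RNAPII) was mapped by ChIP-seq, the sequencing of immunoprecipitated chromatin, in human foreskin fibroblasts immortalised with telomerase (BJ hTERT). An antibody against the N-terminal domain of RPB1, the largest RNAPII subunit, measured total RNAPII, and another measured RNAPII phosphorylated at serine 2 of the RPB1 tail (Ser2), a form that rises as polymerase moves through a gene body. For each antibody there was 1 library at 14 h with no treatment named, and 1 each labelled 16, 19 and 22 h with either vehicle (DMSO) or an inhibitor of the checkpoint kinase ATR (ATRi), which made 14 libraries in 14 groups. The column headers mark the 14 h libraries CTR. The series' stated subject is ATR inhibition and RNAPII transcription during S phase. All groups were the same cell line in the same medium. The start of the hours, the inhibitor's identity and any synchronisation of the cells are not given in the sources used here.

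Licensing and firing are kept apart in the cell cycle. In G1 phase the origin recognition complex, of which ORC1 and ORC6 are subunits, binds origins, and CDC6 and CDT1 then load the MCM2-7 helicase as an inactive double ring. Firing in S phase adds CDC45 and the GINS complex, of which GINS1 and GINS2 are subunits, and this turns each MCM ring into an active helicase. Geminin, the product of GMNN, binds CDT1 and blocks reloading once S phase has begun, and DTL is the substrate receptor of a CUL4 ubiquitin ligase that destroys CDT1 on replicating chromatin. Genes of this pathway are classical targets of E2F factors, which drive transcription at the G1/S border. ATR restrains origin firing when replication is stressed and also in an ordinary S phase.

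The start regions of the members were read from RefSeq (GRCh38.p14), and all 9 were matched by symbol. A window of 250 bases before to 50 bases after each start was searched on both strands for E2F letters (TTTGGCGC, TTTCCCGC, TTTGCCGC or TTTCGCGC). At least 1 window of 6 of the 9 members held such letters, namely CDC6, CDT1, GMNN, GINS1, GINS2 and DTL, against 3.97% of 27167 genes. In CDC6 and GINS1 the match began 7 and 5 bases after the start. In the other 4 it lay upstream, and the 150 bases before the start are printed for these because they show the sequence class that the pathway is known for. The windows were chr16:88803639-88803788 (plus strand), chr6:24775263-24775412 (plus strand), chr16:85688955-85689104 (minus strand) and chr1:212035598-212035747 (plus strand). Each is written 5′ to 3′ in the gene's direction, with the E2F letters of either strand in capitals.
CDT1: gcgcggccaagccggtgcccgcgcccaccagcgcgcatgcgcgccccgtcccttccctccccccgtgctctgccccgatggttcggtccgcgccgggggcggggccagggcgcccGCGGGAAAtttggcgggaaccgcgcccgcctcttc
GMNN: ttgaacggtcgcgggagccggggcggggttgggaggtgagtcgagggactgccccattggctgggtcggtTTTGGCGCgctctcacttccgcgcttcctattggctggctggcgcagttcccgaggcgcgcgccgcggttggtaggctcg
GINS2: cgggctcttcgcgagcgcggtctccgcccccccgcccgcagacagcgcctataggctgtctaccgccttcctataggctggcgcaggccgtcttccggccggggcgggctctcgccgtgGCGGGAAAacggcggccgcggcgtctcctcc
DTL: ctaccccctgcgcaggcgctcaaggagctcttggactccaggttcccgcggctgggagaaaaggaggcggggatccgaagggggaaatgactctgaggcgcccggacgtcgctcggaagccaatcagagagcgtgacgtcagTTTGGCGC
The capitals began 35 bases before the start in CDT1, 80 in GMNN, 31 in GINS2 and 8 in DTL. For GMNN this was the downstream of its RefSeq start sites, 482 bases from the start in the deposited table. The distance to the table's start was 576 bases for CDT1, 1119 for GINS2 and 195 for DTL. CCAAT was present in 8 of 9 members (all but CDT1) against 39.8% of genes, the GC box GGGCGG in 6 of 9 against 48.2%, and TTTGAA, the core of the CHR element of many mitotic promoters, in 0 of 9 against 18.2%. These are matches of letters only. No value of RNAPII at the promoter alone was used, because the table gives 1 value over the whole span of a gene.

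The values are reads per 1000000 library reads (RPM) over the gene span, and division by the span in kb (RPM per kb) was used only to compare levels between genes. The libraries held 17181179 to 62368915 reads, and 141 to 4289 reads lay on a member in a library. The share of reads inside the listed nuclear genes ran from 35.8% to 72.0%. It was highest at 19 h, at 70.8% and 72.0% for total RNAPII and 63.5% and 65.6% for Ser2, so a difference in RPM between hours is given together with the same difference for the median gene of the table. The sources used here name no spike-in, and none entered the calculations. A gain common to most genes therefore cannot be told apart from better immunoprecipitation. Summed RPM of the 9 fibroblast markers in the table was 709 to 2185. Of 6 keratinocyte markers only KRT14 was in the table (0.236 to 1.18 RPM), of 6 endothelial and blood markers only VWF (15.2 to 50.5 RPM) and of 4 melanocyte markers only MITF (36.5 to 75.5 RPM), and their part in the results was not tested. With 1 library per group, p-values measure only the spread between libraries of different hours or treatments that stand in for replicates. Intervals cover counting error only.

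In the level of total RNAPII per length CDT1 stood first among the members. Its span on hg38 is short (chr16:88803213-88809258) and carried a median of 5.31 RPM per kb over the 7 total RNAPII libraries (range 2.23 to 7.20), more than 95.9% of genes. GMNN (chr6:24774931-24786099) followed at 2.09, ORC6 (chr16:46689643-46698394) at 1.72, GINS2 (chr16:85676198-85690073) at 1.68 and CDC6 (chr17:40287633-40304657) at 1.62 RPM per kb. CDC45 (chr22:19479459-19520612) had 1.27, GINS1 (chr20:25407727-25452628) 1.11, DTL (chr1:212035553-212107400) 1.00 and ORC1 (chr1:52372829-52404459) 0.873 RPM per kb, which was still more than 56.7% of genes. The ranges over libraries of neighbours in this order overlapped in every case. In Ser2 CDT1 was again first, at 2.44 RPM per kb, and ORC1 last, at 0.620. Other RefSeq genes covered at most 5.29% of a member's span, in GINS2.

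All 9 members had their highest total RNAPII value at 19 h, as did 85.7% of genes, and among the 3 DMSO libraries their lowest at 22 h, as did 81.0% of genes. Relative to the library's median gene, the highest value was at 19 h in 2 of 9, CDC6 and GINS1 (38.8% of genes), while 22 h was the lowest DMSO value in 9 of 9 (36.6% of genes). CDT1, the licensing factor that loads MCM, had 25.8 RPM at 14 h, 35.1 in DMSO and 32.1 in ATRi at 16 h, then 43.5 and 39.8 at 19 h and lastly 13.5 and 28.0 at 22 h. The 22 h DMSO library was the lowest of the 7, and the 22 h ATRi library lay at a level between 14 h and 16 h. CDC6, its loading partner, had 24.3 RPM at 14 h, 31.2 in DMSO and 27.5 in ATRi at 16 h, then 45.1 and 44.6 at 19 h and lastly 15.4 and 26.3 at 22 h. GMNN, the inhibitor of CDT1, had 17.2 RPM at 14 h, 23.3 in DMSO and 20.8 in ATRi at 16 h, then 33.2 and 31.1 at 19 h and lastly 12.9 and 24.4 at 22 h. For GMNN the 22 h ATRi library was above both 16 h libraries, whereas for CDC6 and CDT1 it was below both. Within ATRi the log2 ratio of 22 h to 16 h was 0.23 for GMNN (counting interval 0.05 to 0.42) and -0.19 for CDT1 (-0.36 to -0.04). That of CDC6 was within counting error (-0.06, interval -0.23 to 0.10). No interval was computed between the 22 h ATRi and the 16 h DMSO library.

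Among the origin recognition subunits, ORC1 had 21.6 RPM at 14 h, 28.9 in DMSO and 27.6 in ATRi at 16 h, then 40.2 and 39.9 at 19 h and lastly 18.2 and 25.0 at 22 h. ORC6, the member with the fewest reads, had 10.5 RPM at 14 h, 15.07 and 15.05 at 16 h, then 21.8 and 18.4 at 19 h and lastly 8.20 and 15.2 at 22 h. Both 22 h values of ORC1 were below its 16 h values, in ATRi within counting error (log2 ratio -0.14, interval -0.31 to 0.03). ORC6 in ATRi at 22 h likewise did not differ from its 16 h level beyond counting error (log2 ratio 0.01, interval -0.21 to 0.24). CDC45, the helicase activator, had 41.7 RPM at 14 h, 55.1 in DMSO and 52.4 in ATRi at 16 h, then 68.1 and 60.9 at 19 h and lastly 22.7 and 34.4 at 22 h, so that both 22 h libraries were the lowest of the 7. GINS2 had 17.4 RPM at 14 h, 23.3 and 24.6 at 16 h, then 26.7 and 26.8 at 19 h and lastly 12.03 and 16.7 at 22 h, likewise with both 22 h libraries lowest. GINS1 had 38.1 RPM at 14 h, 50.0 and 47.3 at 16 h, then 75.9 and 73.5 at 19 h and lastly 33.7 and 59.2 at 22 h, with its 22 h ATRi library above both 16 h libraries. The 2 GINS subunits therefore differed in the place of their 22 h ATRi library. DTL had 69.1 RPM at 14 h, 76.5 and 72.0 at 16 h, then 91.5 and 92.2 at 19 h and lastly 42.9 and 63.2 at 22 h, both 22 h values being the lowest of the 7.

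**Figure D1:**
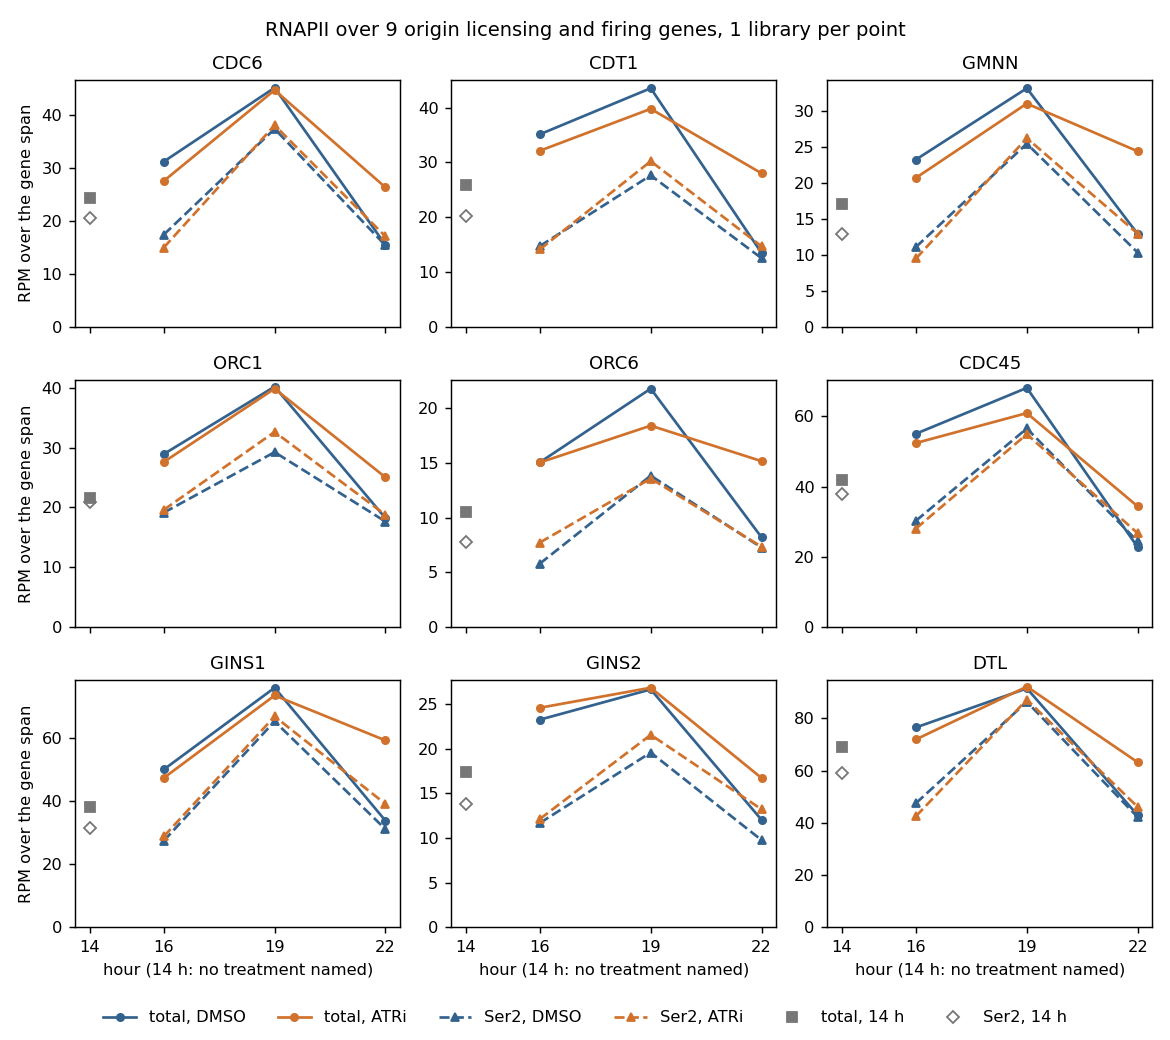
RPM over the gene span (y axis, from 0) against hour (x axis) for each of the 9 members, 1 library per point. Solid lines join total RNAPII and dashed lines Ser2, in DMSO or ATRi, and grey symbols are the 14 h libraries. All 9 panels peak at 19 h, as most genes of the table do. At 22 h the total RNAPII values of ATRi lie above those of DMSO, which also holds for most genes.

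In DMSO, total RNAPII at 22 h was below that at 16 h over all 9 members. The log2 ratio was -1.35 for CDT1, or 0.392 times the 16 h level (95% counting interval -1.59 to -1.18 on the log2 scale), and -1.26 for CDC45 (-1.44 to -1.12). CDC6 was at -0.99, GINS2 at -0.92, ORC6 at -0.84, DTL at -0.83, GMNN at -0.82, ORC1 at -0.65 and GINS1 at -0.56. The median gene was at -0.26, and 83.7% of genes were below 0. Relative to the median gene, CDT1 was at -1.09 and CDC45 at -1.001, with 0.12% and 0.24% of genes lower than they were, and GINS1, the least changed member, was at -0.30, with 15.9% of genes lower. In ATRi the same ratios ran from -0.60 for CDC45 to 0.32 for GINS1, with a median gene of 0.14. Relative to it, GINS2 was at -0.69 in ATRi, against -0.67 in DMSO, and CDC45 at -0.74, while CDT1 was at -0.34 and CDC6 at -0.21, and GMNN (0.09) and GINS1 (0.18) lay above it. On this relative scale the counting intervals of the 2 treatments did not overlap in 5 of 9 members, CDC6, CDT1, GMNN, GINS1 and DTL, each of them lower in DMSO, beside 15.2% of genes with such a gap. In Ser2 this held for 1 of 9, GMNN, beside 6.77% of genes.

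**Figure D2:**
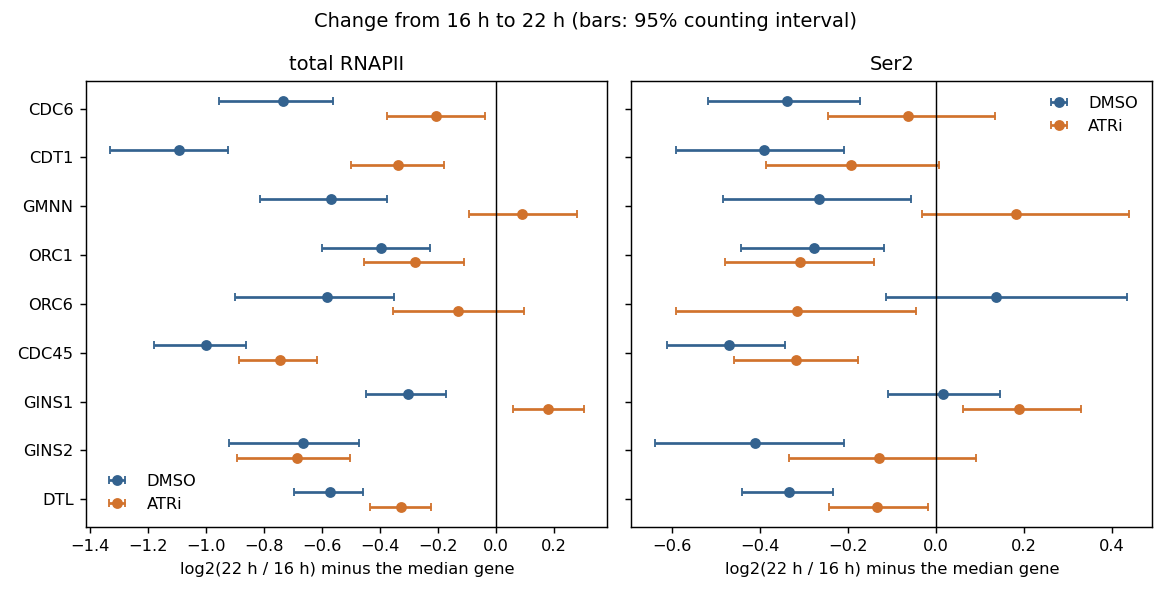
Log2 ratio of 22 h to 16 h minus that of the median gene (x axis) for each member, in DMSO and ATRi, for total RNAPII and Ser2. Bars are 95% counting intervals. In total RNAPII all 9 DMSO points lie left of 0, from -1.09 for CDT1 to -0.30 for GINS1, and GMNN and GINS1 lie right of 0 in ATRi.

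Fitted over both treatments with limma, the 22 h minus 16 h difference in total RNAPII was below 0 in all 9 members, with a median of -0.51 against -0.06 for the median gene, and no member passed. CDC45 had -0.93 (moderated SE 0.24, adjusted p = 0.558), CDT1 -0.77 (SE 0.27, adjusted p = 1.0) and GINS1 -0.12 (SE 0.24, adjusted p = 1.0) in limma. No gene of 12031 passed limma (0.0%), and at p under 0.05 before adjustment 72 genes were higher and 283 lower (477 and 560 with each library centred on its median gene). DESeq2 called 25 genes higher and 25 lower (0.246%), among the latter CDC45, and edgeR called 0. Both 22 h libraries lay below both 16 h libraries in 6 of 9 members, against 11.5% of genes, and in 7 of 9 against 14.3% relative to the library's median gene, where ORC6 joined CDC6, CDT1, ORC1, CDC45, GINS2 and DTL. Without the 22 h ATRi library all 9 members were called lower by limma (median -0.90, with 34.0% of genes called lower), and without the 22 h DMSO library only CDC45 was (-0.58, adjusted p = 0.035, with 0.282% of genes called lower), while GMNN, ORC6 and GINS1 turned to 0.21, 0.07 and 0.31. In both of these fits the remaining 22 h library had no partner and was assumed to vary like the 16 h and 19 h libraries. With each library's trend of RPM with read density removed, limma called 6 members lower (4.44% of genes), namely CDC6, CDT1, ORC1, CDC45, GINS2 and DTL.

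At 22 h total RNAPII was higher in ATRi than in DMSO over all 9 members, and at 16 h it was below DMSO in 8. Of these 8, only CDC6 had a 16 h counting interval wholly below 0 (-0.34 to -0.02 on the log2 scale). The others were within counting error. Of all genes, 11.1% were below DMSO at 22 h and 36.6% at 16 h. The share of reads inside the listed nuclear genes at 22 h was 57.4% in ATRi and 42.8% in DMSO, and its part in these values was not tested. The log2 ratio at 22 h was 1.03 for CDT1, or 2.04-fold (counting interval 0.85 to 1.27 on the log2 scale). GMNN had 0.89, ORC6 0.85, GINS1 0.80, CDC6 0.75, CDC45 0.59, DTL 0.55, GINS2 0.46 and ORC1 0.45. The median gene was at 0.50, 7 of the 9 members were above it, and CDT1 was above 96.9% of genes while ORC1 was above 43.6%. The 22 h DMSO library that is the denominator here is also the numerator of the 22 h over 16 h ratio in DMSO, so the values are not independent. At 16 h the ratios ran from -0.18 (CDC6) to 0.08 (GINS2), with a median of -0.08 against 0.05 for the median gene, and at 19 h from -0.24 (ORC6) to 0.01, with a median of -0.05 against -0.03. Only GINS2 was higher in ATRi at all 3 hours (1 of 9, against 18.0% of genes). Its ratios at 16 h (0.08, interval -0.10 to 0.26) and 19 h (0.01, interval -0.11 to 0.13) were within counting error. Averaged over the 3 hours with limma, the members' differences in total RNAPII ran from 0.12 to 0.26 (median 0.19, median gene 0.18). With centred libraries they ran from -0.055 to 0.084, with DTL, ORC1 and CDC45 below 0. On the deposited scale 0 members and 0 of 12031 genes (0.0%) passed, also with edgeR and DESeq2, while 204 genes were higher and 0 lower at p under 0.05 before adjustment, against 35 and 31 with centred libraries. Without the 22 h libraries the members' median turned to -0.10.

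**Figure D3:**
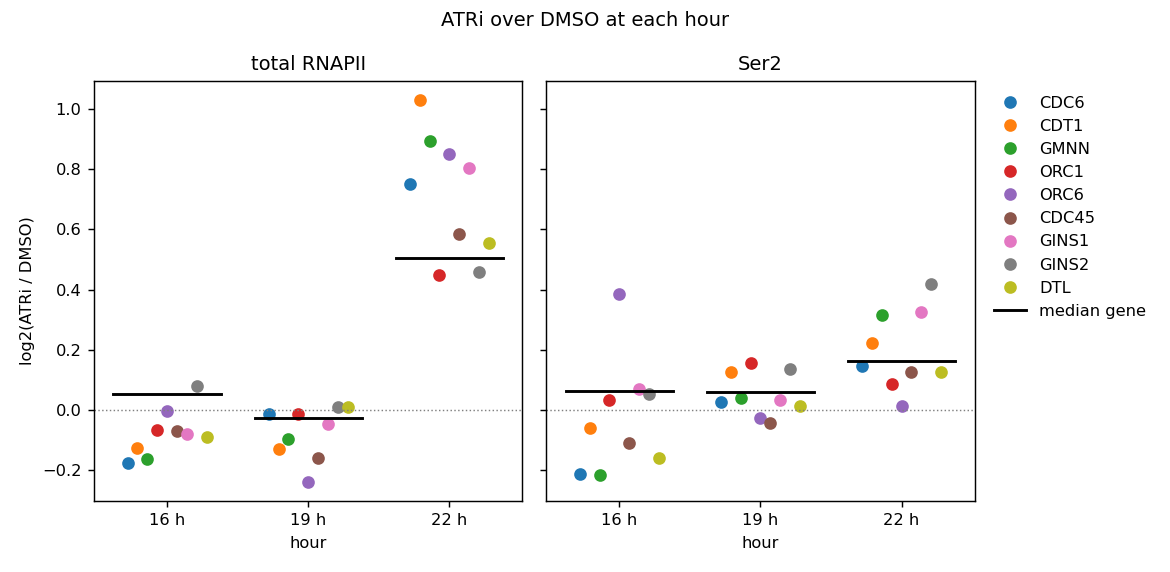
Log2 ratio of ATRi to DMSO (y axis) at 16, 19 and 22 h for total RNAPII and Ser2, 1 point per member, with the median gene as a black bar. The members of total RNAPII lie from -0.18 to 0.08 at 16 h and from 0.45 to 1.03 at 22 h.

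The test of the treatment difference in the 22 h to 16 h change used both antibodies as replicates, although they may have been applied to the same chromatin. The change in ATRi minus that in DMSO was above 0 in all 9 members (median 0.46) and above the median gene (0.25) in 8 of 9. Most genes were above 0 as well, with 1838 of 12013 below it. The values were 0.79 for GMNN (SE 0.23, limma adjusted p = 0.216), 0.72 for CDT1 (SE 0.25, adjusted p = 0.228), 0.64 for CDC6 (SE 0.21, adjusted p = 0.218) and 0.57 for GINS1 (SE 0.18, adjusted p = 0.216). ORC6 had the smallest, 0.24 (SE 0.31, adjusted p = 0.612), and it turned to -0.01 with each library centred on its median gene. No member and no gene of 12013 passed limma (0.0%), with 2278 genes higher and 73 lower at p under 0.05 before adjustment. With centred libraries more were lower than higher, 1093 against 827. In the count tests edgeR called 0, and DESeq2 called 0 higher and 1 lower, not a member. Without the Ser2 22 h DMSO library all 9 members were called higher, beside 68.4% of genes, and likewise without the Ser2 22 h ATRi library, beside 68.5%. The 22 h values then came from total RNAPII alone, and the remaining pair was assumed to vary like those of the other hours. Without either 22 h library of total RNAPII, each left out in turn, 3 members (CDC6, GMNN and DTL) were called, beside 8.69% of genes in each case.

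In Ser2 all 9 members again had their highest value at 19 h (89.6% of genes), but relative to the library's median gene only CDC6, GMNN, ORC6 and GINS1 did (43.8% of genes). In DMSO the differences between 16 h and 22 h were smaller than in total RNAPII for all 9 members. CDC45 had 37.8 RPM of Ser2 at 14 h, then 30.3 in DMSO and 28.0 in ATRi at 16 h, then 56.5 and 54.9 at 19 h and lastly 24.4 and 26.7 at 22 h, so both 22 h libraries were below both 16 h libraries. ORC1 had 20.9 RPM at 14 h, 19.1 and 19.6 at 16 h, then 29.2 and 32.6 at 19 h and lastly 17.6 and 18.8 at 22 h, with the same order. Within ATRi the 22 h to 16 h log2 ratio of CDC45 was within counting error (-0.07, interval -0.21 to 0.07). So was that of ORC1, both in DMSO (-0.11, interval -0.28 to 0.05) and in ATRi (-0.06, interval -0.23 to 0.11). GINS1 had 31.5 RPM at 14 h, 27.4 and 28.8 at 16 h, then 65.2 and 66.8 at 19 h and lastly 31.1 and 39.1 at 22 h, so both of its 22 h libraries were above both 16 h libraries. On the deposited scale GINS1 rose from 16 h to 22 h (0.31, SE 0.10, limma adjusted p = 0.0167), 1 of 9 members beside 39.0% of genes called higher, and 0 members were called lower beside 0.918% of genes. The call of GINS1 was lost without the 16 h ATRi library (0.25, limma adjusted p = 0.182) or the 22 h ATRi library (0.17, adjusted p = 0.248). Without the 16 h DMSO or the 22 h DMSO library GMNN was called as well (0.36 in both, adjusted p = 0.0457 and 0.0384 in limma), beside 30.4% and 40.3% of genes. The other 8 members ran from -0.19 (CDC45) to 0.16 (GMNN), below the median gene at 0.21. With the libraries centred on their median gene, 5 members fell, beside 10.5% of genes called lower and 10.2% called higher: CDC45 (-0.41, limma adjusted p = 0.00177), ORC1 (-0.31, adjusted p = 0.0184), CDT1 (-0.31, adjusted p = 0.025), GINS2 (-0.29, adjusted p = 0.0477) and DTL (-0.25, adjusted p = 0.0335). The edgeR test called 3 of these lower, CDT1, ORC1 and CDC45 (7.6% of genes), and DESeq2 only CDC45 (6.03% of genes). On the centred scale GINS1 had 0.08 (adjusted p = 0.504) and was not called, and CDC6 (-0.22), GMNN (-0.06) and ORC6 (-0.11) had a sign opposite to that on the deposited scale. Both 22 h libraries lay below both 16 h libraries in 2 of 9 members (5.96% of genes), and relative to the library's median gene in 6 of 9 (29.7% of genes).

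From 16 h to 19 h all 9 members rose in Ser2 on the deposited scale, beside 85.9% of genes called higher and 5.67% called lower by limma. With centred libraries 3 of 9 were called higher, GMNN (0.43, adjusted p = 0.00107), GINS1 (0.37, adjusted p = 0.000568) and CDC6 (0.35, adjusted p = 0.00277), beside 35.4% of genes higher and 31.4% lower in limma. DESeq2 called GMNN and GINS1 (24.8% of genes higher) but not CDC6 (0.29, DESeq2 adjusted p = 0.0588). The edgeR test called GMNN, GINS1 and CDC6 higher (CDC6 0.31, edgeR adjusted p = 0.00968). It called ORC1 lower (-0.23, edgeR adjusted p = 0.0361), beside 4018 genes higher and 3818 lower of 11989. With the density trend removed, limma called 0 members higher (17.6% of genes) and 4 lower, CDT1, ORC1, CDC45 and GINS2 (12.5% of genes), and CDC6 (-0.10) and GMNN (-0.025) turned negative. The 19 h libraries were those with the largest share of reads in genes, and the part of that share in these values was not tested. In total RNAPII 1 member, GINS1, was called higher at 19 h on the deposited scale, beside 39.8% of genes higher and 2.35% lower, and 0 members with centred libraries, beside 3.75% higher and 6.35% lower. The call of GINS1 (0.61, limma adjusted p = 0.0379) was lost without any 1 of the 16 h or 19 h libraries (0.39 to 0.84, limma adjusted p = 0.114 to 0.774). Without the 22 h DMSO or the 22 h ATRi library 8 members were called higher, beside 76.9% of genes in each case. The ATRi to DMSO difference in Ser2, averaged over the 3 hours, had a members' median of 0.09 against 0.10 for the median gene. No member and no gene of 11989 passed limma (0.0%) or edgeR, DESeq2 called 0 of the 1297 genes for which it gave an adjusted p, with no member among them, and 2630 genes were higher and 25 lower at p under 0.05 before adjustment, against 632 and 786 with centred libraries. At 22 h alone the Ser2 ratio of ATRi to DMSO was 0.42 for GINS2, 0.33 for GINS1 and 0.31 for GMNN, and 0.01 for ORC6, with a median gene of 0.16. ORC1, GINS1 and GINS2 were higher in ATRi at all 3 hours (3 of 9, against 42.6% of genes). At 16 h each of them was within counting error, with intervals of -0.15 to 0.22, -0.08 to 0.22 and -0.18 to 0.28.

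From 14 h to 16 h in DMSO the antibodies differed in direction over the members, as they did for the median gene. Total RNAPII was higher at 16 h in all 9, by 0.15 (DTL) to 0.50 (ORC6) on the log2 scale, and Ser2 was lower in all 9, by -0.12 (ORC1) to -0.45 (CDT1). The median gene had 0.26 in total RNAPII and -0.07 in Ser2. Of all genes, 13.1% were below 0 in total RNAPII and 65.0% in Ser2. The Ser2 counting interval held 0 for ORC1 (-0.31 to 0.06) and GMNN (-0.45 to 0.02). From 14 h to 16 h in ATRi, total RNAPII was likewise higher in all 9 (median 0.31, median gene 0.32). Ser2 was lower in all 9 (median -0.42), but the median gene was at -0.001 and 50.3% of genes were below 0. There the intervals of ORC1, ORC6, GINS1 and GINS2 held 0. The 14 h cells, headed CTR, had no named treatment and the 16 h cells had DMSO or ATRi. Hour and treatment therefore cannot be told apart, and with 1 library on each side there is no test. The log2 ratio of Ser2 to total RNAPII at 16 h in DMSO was -1.30 for ORC6, -1.22 for CDT1 and -1.03 for GMNN, below -0.60 for the median gene, and ORC1 (-0.58) was the 1 member above it. At 22 h in DMSO the ratio was -0.10 for CDT1, -0.31 for GMNN and 0.10 for CDC45, against -0.13 for the median gene, and 6 of 9 members were above it. The 22 h to 16 h change in Ser2 minus that in total RNAPII was above 0 in all 9 members, from 0.31 (ORC1) to 0.74 (CDC45). Most genes were above 0 as well, with 1173 of 12013 below it. The members' median was 0.53, against 0.29 for the median gene. In limma 0 members and 0 of 12013 genes passed (0.0%), and edgeR and DESeq2 also called 0, with 433 genes higher and 1 lower at p under 0.05 before adjustment, against 146 and 160 with centred libraries. Without the 22 h ATRi library of total RNAPII all 9 members were called, beside 61.3% of genes, in a fit that again left 1 library of that hour without a partner. The ATRi effect in Ser2 minus that in total RNAPII had a members' median of -0.13 against -0.06 for the median gene, and 0 of 12013 genes (0.0%) passed limma, edgeR or DESeq2, with 4 genes higher and 5 lower at p under 0.05 before adjustment, against 21 and 11 with centred libraries.

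Within the members, CDT1 followed the others most closely. Pearson's r between a member and the mean of the other 8, over 14 libraries after removing each library's median gene and each gene's mean per antibody, was 0.97 for CDT1, 0.94 for CDC45, 0.92 for CDC6 and 0.86 for DTL. It was 0.77 for GINS2, 0.75 for GMNN, 0.72 for ORC1, 0.71 for ORC6 and 0.42 for GINS1, the member that left the group most. The libraries share depth, hour and chromatin, so these values are descriptions. The 8 genes outside the group whose profile was most like the members' mean were IFT25 (r = 0.98), PCLAF, DSEL, RFC2, RMDN3 and HACD1 (each 0.97), GINS4 and APRT (each 0.96), over the same 14 libraries. Among these 8, PCLAF encodes a PCNA-binding protein, RFC2 a subunit of the PCNA clamp loader and GINS4 another GINS subunit. IFT25, the most alike, and DSEL, RMDN3, HACD1 and APRT are not known as replication genes. The likeness was therefore not particular to replication genes. Relative to the library's median gene, the members' median in total RNAPII was 0.33 at 16 h and -0.35 at 22 h in DMSO, and 0.10 and -0.10 in ATRi. E2F1, the G1/S transcription factor, was at 0.04 and -1.66 in DMSO and -0.17 and -1.11 in ATRi. CCNB1, the mitotic cyclin, had the opposite order, at -1.41 and -0.61 in DMSO and -0.93 and -0.29 in ATRi.

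**Figure D4:**
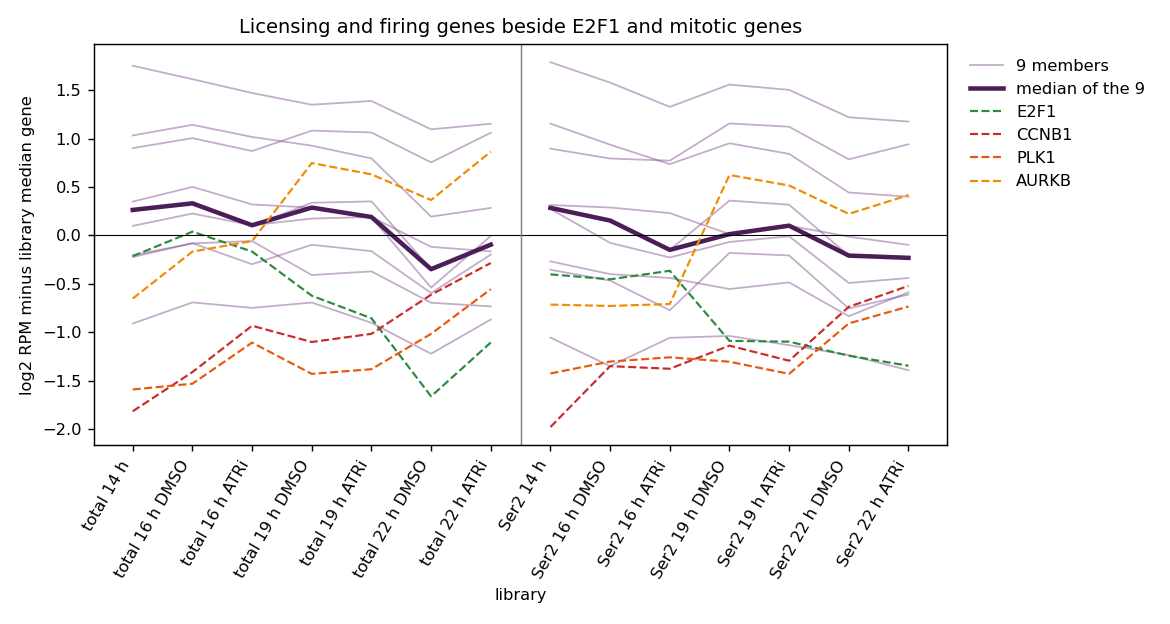
Log2 RPM minus the library's median gene (y axis) in each of the 14 libraries (x axis), with 1 thin line per member, their median as a thick line, and E2F1, CCNB1, PLK1 and AURKB as dashed lines. Lines guide the eye between libraries. The members' median is lowest at 22 h in DMSO for total RNAPII (-0.35), where CCNB1 and PLK1 are above their 16 h levels.

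Of the members, 4 share a divergent promoter region with a gene on the other strand, and in total RNAPII in DMSO each neighbour had a 22 h to 16 h ratio nearer to that of the median gene than its member had. The same held for 4 of 4 neighbours in Ser2 in ATRi, but there the log2 ratio of INTS7 (0.12) lay within DTL's counting interval (0.004 to 0.23). It held for 3 of 4 in total RNAPII in ATRi, where VPS35 was at -0.39 and ORC6 at -0.13 relative to the median gene, and for 3 of 4 in Ser2 in DMSO, where VPS35 was at -0.18 and ORC6 at 0.14. Relative to the median gene, total RNAPII in DMSO had a log2 ratio of -0.29 over PRPF38A, 105 bases from the start of ORC1 (-0.40), and of -0.23 over VPS35, 125 bases from the start of ORC6 (-0.58). UFD1, 244 bases from the start of CDC45 (-1.001), was at -0.16, and INTS7, 11 bases from the start of DTL (-0.57), was at -0.23. The gap between neighbour and member ran from 0.11 for PRPF38A to 0.84 for UFD1, with no replicate check. Before subtraction of the median gene, PRPF38A (-0.54) lay within the counting interval of ORC1 (-0.86 to -0.48). Genes lower than the member in total RNAPII in DMSO were 0.24% for CDC45, 3.36% for ORC6, 3.53% for DTL and 9.89% for ORC1. A neighbour would therefore tend to lie nearer to the median gene in any case, and the share of all genes that did was not computed. The gene ENSG00000131149, which overlaps the end of GINS2 by 7 bases, was at -0.86, below GINS2 itself (-0.67).

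The MCM2-7 helicase, which several of the members load or activate, had the lowest median of the 7 groups compared with the members. In total RNAPII its 5 measured genes had a median 22 h minus 16 h difference of -0.76 (range -0.99 to -0.64), with MCM3 at -0.99 and MCM6 at -0.96 (limma adjusted p = 0.558 for each), against -0.51 for the 9 members and -0.06 for the median gene. In Ser2 3 of these 5 fell and 0 rose. The 5 other origin recognition subunits and partners had a median of -0.09, with ORC2 at 0.23 and ORC5 at -0.14. ORC1 was at -0.40 and ORC6 at -0.41, and the limma adjusted p was 1.0 for each of these 4, so no difference among the subunits is shown. In Ser2 2 of 5 rose. The 11 firing kinases and firing factors had a median of -0.18, with MCM10, which helps to activate the helicase, at -0.79 and POLE, the leading-strand polymerase, at -0.49, and in Ser2 4 rose and 1 fell. The 7 fork protection genes had a median of -0.29, with CLSPN at -0.38 and TIMELESS at -0.30, and in Ser2 0 of 7 passed. The 11 genes that control licensing through chromatin or ubiquitin had a median of -0.10, with PCNA, the sliding clamp on which DTL acts, at -0.67 and FBXO5 (EMI1), an inhibitor of the anaphase-promoting complex that protects geminin, at 0.22, and in Ser2 8 of 11 rose. The 6 genes for S phase cyclins, CDK2, CDC25A and E2F factors had a median of -0.44, with E2F1 at -1.41 and CCNE2 at -0.80, and in Ser2 2 rose and 1 fell. The 15 mitotic genes had a median of 0.41, all above 0, with KIF2C at 0.77 and AURKB at 0.64, and in Ser2 15 of 15 rose. None of these genes passed limma in total RNAPII, where 0.0% of genes did, and the Ser2 counts stand beside 39.0% of genes called higher and 0.918% called lower. With centred libraries (10.2% of genes higher, 10.5% lower) the Ser2 counts were 0 higher and 4 lower of the MCM2-7 helicase, 1 and 1 of the origin recognition subunits and 1 and 1 of the firing factors. They were 0 and 1 of the fork protection genes, 2 and 1 of the licensing control genes, with PCNA the 1 that was lower, 1 and 2 of the S phase group and 13 and 0 of the mitotic genes.

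**Figure D5:**
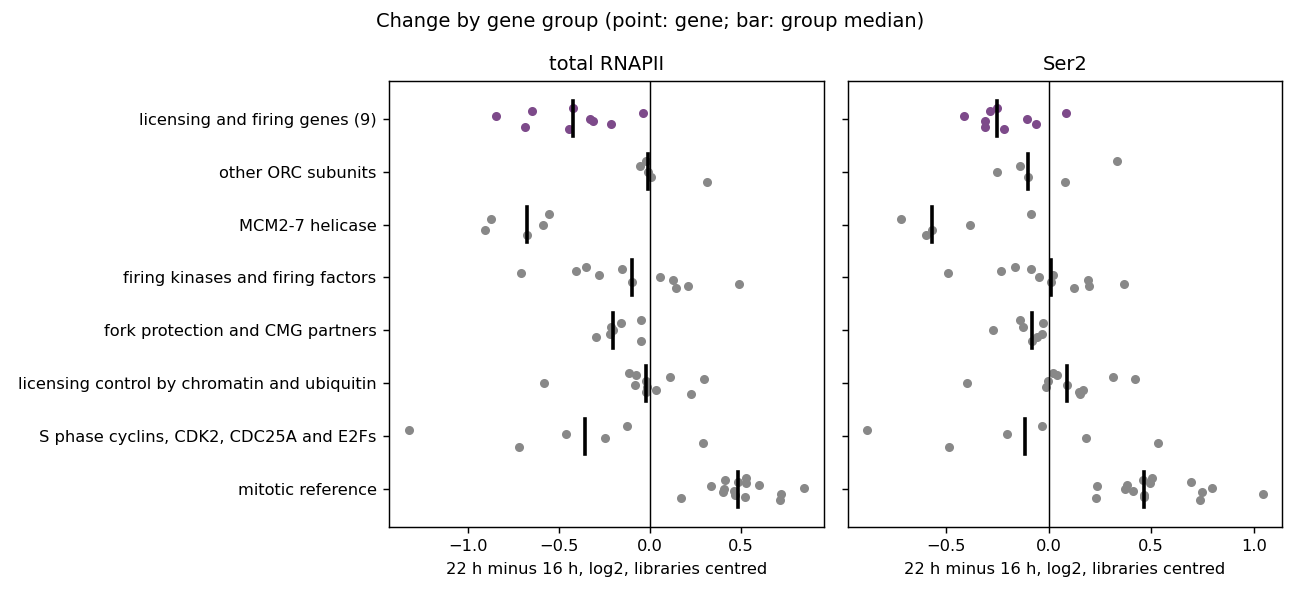
Difference between 22 h and 16 h in log2 RPM with libraries centred on their median gene (x axis), 1 point per gene, for the 9 members and 7 other groups, in total RNAPII and Ser2, with the group median as a black bar. The members' median is -0.42 in total RNAPII and -0.25 in Ser2, below the other origin recognition subunits and above the MCM2-7 helicase.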

How the data were processed

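ChIP-seq of total RNAPII and Ser2 was deposited as 1 table of RPM values, reads per 1000000 library reads over each gene span, which the authors computed and did not divide by span, as the values show. Per the submitters' processing notes, reads were handled with Bowtie2 2.3.3.1 and SAMtools 1.4 on hg38. The counting tool, any input or spike-in and duplicate handling are not given in the sources used here, and the labels' protocol text names histone antibodies only, so only the sample labels identify the RPB1 antibodies. The deposited gene length in bases set the RPM per kb.

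The RPM values of every library were whole multiples of 1 read (100.0% of values, tolerance 0.01 reads), which gave the reads behind each value and 17181179 to 62368915 reads per library. The table has 0 columns of other samples. Genes were named by their Ensembl span against RefSeq GRCh38.p14 spans (overlap of at least 0.8 of the joint length, or 0.5 with an end within 100 bases), which named 86.46% of 12425 genes, and promoter sequences came from RefSeq.

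The test was limma 3.58.1 (R 4.3.3) on log2(RPM + 0.5), after genes with a mean under 1 RPM and 14 mitochondrial genes were left out, with Benjamini-Hochberg adjustment over all genes and a threshold of 0.05, two-sided. Fold changes are on that scale and understate changes of low genes. Hour was a block in the ATRi tests and treatment a covariate in the hour tests. Ratios of 2 libraries have 95% counting intervals. The limma fits were also run on simulated data with known changes, and the outcome is not reported here. Alternatives were edgeR 4.0.16 and DESeq2 1.42.0 on whole reads, other pseudocounts and filters, centring, removal of the density trend, background subtraction and leaving out libraries. The members and gene lists were chosen with earlier results of these data known. Named beside the members were, per list, the genes with the largest 22 h minus 16 h difference in total RNAPII, of which 2 are printed, the divergent or overlapping neighbours, the 8 most alike genes and 4 reference genes.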

Additional observations from a re-analysis of the deposited data

How the results depend on the processing

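With 1 library per group, a single library can decide a value. The limits that depth sets are smaller: 3 reads were 0.0481 to 0.175 RPM, far under every member. Over pseudocounts of 0.1 and 1, no filter and a minimum of 3 RPM, every member difference that was recomputed kept its direction and its side of the threshold. Counts before adjustment did move: for the ATRi antibody difference, 4 genes higher and 5 lower became 0 and 3 at the 3 RPM minimum and 6 and 12 with no filter, and for ATRi in total RNAPII 204 and 0 became 207 and 10 with no filter. The values below changed under the other settings, and the cause was not tested unless the setting itself removes samples.

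With libraries centred on the median gene, the members' median became -0.079 in total RNAPII and 0.12 in Ser2 for 19 h minus 16 h, -0.25 for 22 h minus 16 h in Ser2, -0.018 for ATRi minus DMSO in Ser2, 0.23 for the antibody difference in the 22 h to 16 h change and 0.21 for the treatment difference in it. Centring left 451 genes higher and 764 lower at 19 h in total RNAPII (members 0 higher), 4248 and 3770 in Ser2 (members 3 higher), and 1221 and 1262 at 22 h in Ser2 (members 0 higher, 5 lower). At 22 h in Ser2 CDC6 turned to -0.22, GMNN to -0.059 and ORC6 to -0.11, and ORC6 had -0.013 in the treatment difference. With edgeR these medians were -0.11, 0.092, -0.24, -0.0082, 0.21 and 0.20. The edgeR calls were 375 higher and 817 lower (members 0 higher), 4018 and 3818 (members 3 higher, 1 lower), and 1160 and 911 (members 0 higher, 3 lower). CDC6 then had -0.22, GMNN -0.049 and ORC6 -0.076 in Ser2, and ORC6 -0.014 in the treatment difference. With DESeq2 the medians were -0.13, 0.070, -0.26, -0.022, 0.22 and 0.20. The DESeq2 calls were 347 and 1144 (members 0 higher), 2972 and 3435 (members 2 higher), and 623 and 597 (members 0 higher, 1 lower), with 25 and 25 (members 1 lower) at 22 h in total RNAPII and 1 gene lower in the treatment difference. CDC6 had -0.23, GMNN -0.066 and ORC6 -0.10 in Ser2, and ORC6 -0.023 in the treatment difference.

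With the density trend removed, the members' median was -0.064 for ATRi minus DMSO in total RNAPII and -0.13 in Ser2, -0.32 and -0.20 for 19 h minus 16 h in total RNAPII and Ser2, -0.34 at 22 h in Ser2, 0.086 for the antibody difference and 0.16 for the treatment difference. It called 486 genes higher and 534 lower at 22 h in total RNAPII (members 6 lower), 600 and 390 in Ser2 (members 0 higher, 6 lower), 1192 and 1072 at 19 h in total RNAPII (members 0 higher, 4 lower), 2112 and 1502 in Ser2 (members 0 higher, 4 lower), and 4 and 11 in the treatment difference. CDC6 had -0.36, GMNN -0.20 and ORC6 -0.22 at 22 h in Ser2, CDC6 -0.10 and GMNN -0.025 at 19 h in Ser2, and ORC1 -0.0089, ORC6 -0.15 and GINS2 -0.007 in the treatment difference. With background density subtracted, calls were 3 and 10 at 22 h in total RNAPII, 2 and 10 in Ser2 (members 0 higher), 92 and 46 at 19 h in total RNAPII (members 0 higher), 363 lower at 19 h in Ser2 and 18 lower in the antibody difference, and the members' median was 1.36 at 19 h in Ser2 and 0.80 in the treatment difference.

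Leaving out 1 library, or 1 hour for ATRi, moved the members' median from -0.90 to -0.15 at 22 h in total RNAPII (0 to 9 members, 0 to 401 genes higher and 0 to 4089 lower), with GMNN at -0.81 to 0.21, ORC6 at -0.90 to 0.070, GINS1 at -0.55 to 0.31, ORC5 at -0.30 to 0.022, TIMELESS at -0.61 to 0.0010 and FBXO5 at -0.19 to 0.63. At 22 h in Ser2 it ran from -0.14 to 0.071 (0 to 2 members higher, 1628 to 4830 genes higher and 20 to 166 lower), with CDC6 at -0.14 to 0.15, CDT1 at -0.20 to 0.030, GMNN at -0.037 to 0.36, ORC6 at -0.080 to 0.31, GINS2 at -0.23 to 0.10 and DTL at -0.14 to 0.086. At 19 h it gave 2 to 9258 genes higher and 2 to 667 lower in total RNAPII (0 to 8 members) and a median of 0.86 to 1.05 in Ser2. For ATRi it ran from -0.10 to 0.31 in total RNAPII and from -0.25 to 0.050 in the antibody difference, and Ser2 gave 0 to 846 genes higher and 0 to 6 lower. The antibody difference in the 22 h to 16 h change ran from 0.11 to 0.95 (0 to 9 members, 0 to 7355 genes higher, 0 to 146 lower), and the treatment difference from 0.27 to 0.81 (0 to 9 members, 0 to 8231 genes higher, 0 to 506 lower), with ORC6 at -0.33 to 0.81. The extremes at 22 h in total RNAPII came without the 22 h DMSO or the 22 h ATRi library.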
